A study of Mus musculus with 6 samples.

Results

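The 9 genes described here are Ppef1, Nlrp4e, Gprc5a, Slc35e4, Mfsd6l, Fam84a, Ccdc71l, Nrip3 and Prss56, which were picked by symbol because their read counts stood far higher in pancreas after cerulein than after saline, with little spread between libraries. They are 9 of the 36333 genes in the count table and 9 of the 12441 genes that were abundant enough to test. The samples were whole pancreas of wild-type mice, 3 after intraperitoneal saline and 3 after cerulein, and messenger RNA was sequenced. Where 3 values are listed for a group, they are those of replicates 1, 2 and 3 in that order. Cerulein, a peptide that acts on the cholecystokinin receptor of acinar cells and provokes acute pancreatitis, was given as 10 doses of 200 µl (200 µg/kg/h), and the tissue was collected as soon as the model was complete. No transgene or deletion is named for either group, and strain, age and sex were not given in the labels. Nothing in the labels says whether the samples came from separate mice, so p-values measure the spread between these samples, which may be technical. The choice used the cerulein and saline counts themselves, so the levels of the 9 genes are a description with no test.

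The genes belong to different families. Ppef1 encodes a serine/threonine phosphatase with calcium-binding EF hands, known from sensory neurons. Nlrp4e belongs to the NLR proteins, whose other members sense microbial and stress signals inside cells, and the mouse Nlrp4 genes are known mainly from oocytes. Gprc5a encodes an orphan G protein-coupled receptor induced by retinoic acid and known as a tumour suppressor of the lung. Slc35e4 is placed by sequence among the transporters that carry nucleotide sugars into the Golgi and endoplasmic reticulum, and Mfsd6l among the major facilitator superfamily of membrane transporters. Fam84a, named Lratd1 in RefSeq, carries a domain related to lecithin retinol acyltransferase. Ccdc71l encodes a coiled-coil protein whose function is little known, Nrip3 a protein named for interaction with nuclear receptors that has a retropepsin-like protease fold, and Prss56 a trypsin-like serine protease known for its part in eye size.

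Total counts per library lay between 5335117 and 7610775, and saline replicate 1 stood apart from the other saline libraries. The summed level of 12 acinar marker genes was 393528 CPM (counts relative to the library size after TMM scaling) there and 751098 and 748209 CPM in the other saline libraries. In the cerulein libraries it lay between 217506 and 279580 CPM, so acinar transcripts defined the tissue in both groups but took up less of the cerulein libraries. These CPM are not shares of the reads, and they make the difference look larger than the shares would. The TMM factors were 0.719 and 0.731 in saline replicates 2 and 3 and 1.03 to 1.30 in the other libraries. Of all 12441 genes tested with edgeR's quasi-likelihood test, 28.7% were higher after cerulein at an adjusted p under 0.05, 27.1% were lower, and 18.3% were higher by at least 2-fold. This split moved with the scaling, from 3574 higher and 3373 lower genes with TMM to 2895 and 4190 under upper-quartile scaling and to 5181 and 1449 when only the library size was used. Fewer cells of a type and less RNA per cell cannot be told apart in these bulk samples.

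All 9 genes passed the filter on low counts, and in all 9 every cerulein library stood above every saline library, which was so for 32.4% of all genes tested, while 30.6% had every cerulein library below every saline library. All 9 also passed the adjusted threshold with at least a 2-fold difference, and nothing is read from that, because the genes were chosen for it. By fitted log2 fold change they ranked between 2 and 149 among all genes tested, Ppef1 first and Ccdc71l last of the 9. Their saline levels differed in kind. Ppef1, Fam84a, Nrip3 and Prss56 lay under the filter's level of 1.56 CPM, taken before TMM scaling, in every saline library, so they passed through the cerulein libraries. Nlrp4e, Ccdc71l, Slc35e4 and Mfsd6l exceeded that level in all 3 saline libraries, and Gprc5a in 1.

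**Figure D1:**
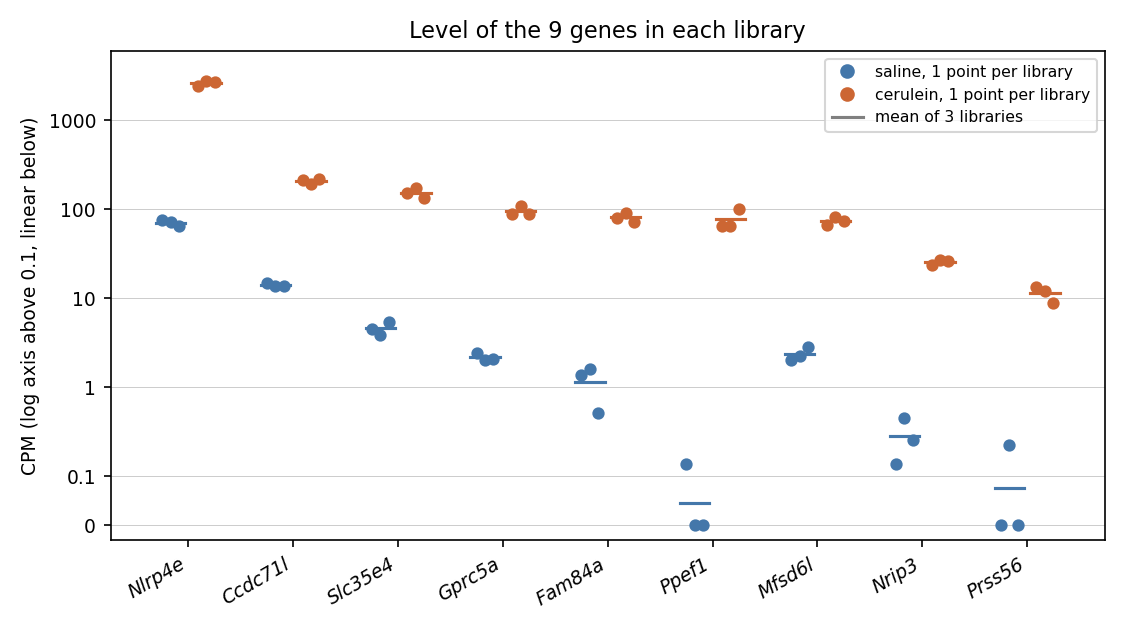
Level of each of the 9 genes in CPM (log axis above 0.1, linear below), 1 point per library, with a bar at the mean of the 3 libraries of a group. In every gene the 3 cerulein points lie above the 3 saline points, and the saline points of Ppef1, Nrip3 and Prss56 lie under 1 CPM.

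Among the receptors and sensors, Nlrp4e had by far the highest level. Its row held 550, 319 and 249 reads after saline and 20332, 23184 and 21242 reads after cerulein. The mean level was 70.1 ± 5.44 CPM after saline and 2600.4 ± 169 CPM after cerulein (SD, n = 3 each). The pooled counts differed 36.5-fold (exact 95% interval 34.4 to 38.8, counting error only). The groups lay far apart and each was tight. In the annotation, Nlrp4e spans chromosome 7, 23301192 to 23362277 on the plus strand (mm10), with 10 exon blocks holding 3400 bases.

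A copy of another gene lies inside Nlrp4e. Krt8-ps is a processed pseudogene, a reverse-transcribed copy of the messenger RNA of Krt8, the keratin of simple epithelia, and it sits in the last intron of Nlrp4e on the same strand, at chromosome 7, 23357125 to 23358069 in GENCODE. Of its 945 bases, 941 align to the Krt8 messenger RNA without a gap at 98.6% identity, with 13 mismatches, and the longest identical run is 299 bases. RefSeq draws the pseudogene longer, at 1686 bases, from 23357094 to 23358779. It overlaps no GENCODE exon of Nlrp4e and has no row of its own in the count table. The stretch of 120 bases that holds 6 of the 13 mismatches is shown because it is where reads of the 2 sequences are most easily told apart. In it, capitals mark the bases that differ, and the pseudogene's stretch lies at chr7:23357925-23358044 on the plus strand (GRCm38), opposite bases 1044 to 1163 of the Krt8 transcript.
Krt8-ps: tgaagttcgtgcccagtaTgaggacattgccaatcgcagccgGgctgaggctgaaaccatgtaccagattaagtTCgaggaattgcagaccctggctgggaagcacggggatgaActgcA
Krt8: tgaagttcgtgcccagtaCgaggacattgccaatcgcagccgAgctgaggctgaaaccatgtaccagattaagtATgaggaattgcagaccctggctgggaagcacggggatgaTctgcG

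The Nlrp4e row followed Krt8 at a nearly fixed ratio in every library. Krt8 itself had 1231, 767 and 517 reads after saline and 45327, 53893 and 48823 reads after cerulein. Nlrp4e held 0.447, 0.416 and 0.482 reads per Krt8 read after saline, and 0.449, 0.430 and 0.435 after cerulein. The mean ratio was 0.448 ± 0.0329 after saline and 0.438 ± 0.00952 after cerulein (SD, n = 3 each), a difference smaller than the spread of the saline libraries. Krt8 rose by 5.24 ± 0.26 on the log2 scale (SE; edgeR, adjusted p = 1.22e-08), and the fitted value of Nlrp4e was 5.21 ± 0.23. The part of Krt8 reads in the Nlrp4e counts was not tested, since the reads were not used here. The treatment of reads with several matching places and the exons that the authors' annotation gave Nlrp4e are unstated in the labels. Reads of the 2 genes may therefore not be separable in this row, and every Nlrp4e value below carries that limit.

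**Figure D2:**
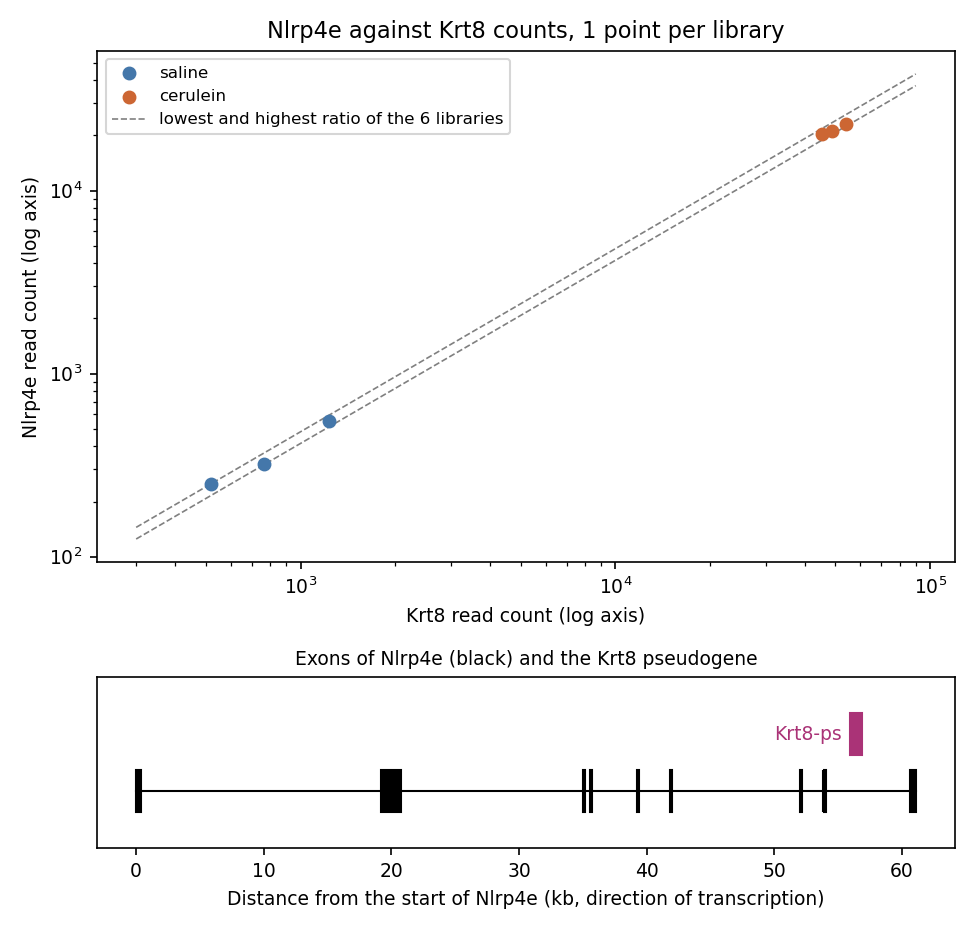
Upper panel, read counts of Nlrp4e against Krt8 in the 6 libraries (both axes log), with dashed lines at the lowest and highest ratio of 0.416 and 0.482; lower panel, the exon blocks of Nlrp4e in black and the Krt8 pseudogene, by distance in kb from the start of Nlrp4e. All 6 points lie within the narrow band, and the pseudogene lies between the last exon blocks and touches none.

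The other genes of the Nlrp4 group gave almost no reads. Nlrp4a, Nlrp4b, Nlrp4c, Nlrp4d and Nlrp4g were at 0 in all 6 libraries, and Nlrp4f had 1 read, in saline replicate 2. Of 20 oocyte genes, the setting in which the Nlrp4 group is best known, 12 were at 0 in every library, among them Zp1, Zp2, Nobox, Figla and Nlrp5. The summed level of the oocyte genes was 37.1 to 57.2 CPM after saline and 16.7 to 20.01 CPM after cerulein. Tle6 alone made up most of the saline sum (36.3, 55.4 and 42.4 CPM). Tle6 and Gdf9 made up most of the cerulein sum (means of 8.79 and 8.95 CPM), so the sum does not describe the list as a group. Only 2 could be tested, and they went opposite ways. Gdf9, an oocyte growth factor, rose by 4.26 ± 0.42 in log2 units (edgeR, adjusted p = 2.44e-06), from 2, 3 and 2 reads to 81, 86 and 57 reads. It lay under 1.56 CPM in every saline library, so it passed the filter through the cerulein libraries. Tle6, a transcription cofactor also used by oocytes, fell by 2.34 ± 0.20 (edgeR, adjusted p = 6.18e-07).

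Gprc5a had 18, 9 and 8 reads after saline and 740, 920 and 693 reads after cerulein. Its mean level was 2.17 ± 0.229 CPM after saline and 94.2 ± 11.6 CPM after cerulein, and the pooled counts differed 42.4-fold (exact 95% interval 30.4 to 61.0). The lowest cerulein library was 35.9-fold above the highest saline library. Gprc5a lies at chromosome 6, 135065651 to 135084709 on the plus strand, with 4 exon blocks. It belongs to a small group of receptors first found by their response to retinoic acid, and the group did not move together. Gprc5c rose by 1.54 ± 0.19 in log2 units (edgeR, adjusted p = 1.69e-05), from 24.5 to 70.6 CPM. Gprc5b was at 0.32 ± 0.26 (edgeR, adjusted p = 0.323) and passed the threshold without saline replicate 1, at 0.71. Gprc5d, known from hair follicles and plasma cells, had 1 read, in cerulein replicate 3.

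Across the other NLR proteins, 24 genes were in the table, 11 were at 0 in all libraries and 7 could be tested. Of these, 2 (28.6%) rose, near the 28.7% of all genes tested, and none fell. With limma-voom 4 were higher, with DESeq2 2, and at an unadjusted p under 0.05 with edgeR 5. Nlrp3, the sensor of the best-known inflammasome, rose by 3.02 ± 0.37 in log2 units (edgeR, adjusted p = 1.52e-05), from 1.30 to 11.2 CPM. Nod2, a sensor of bacterial cell wall fragments, rose by 1.47 ± 0.52 (edgeR, adjusted p = 0.0291). That call was lost with upper-quartile factors (1.27) and with DESeq2 (1.46). It was also lost when saline replicate 1 (1.14), saline replicate 2 (1.43) or cerulein replicate 3 (1.02) was left out. Of 11 markers of macrophages, the cells in which Nlrp3 is best known, 5 (45.5%) rose, against 28.7% of all genes tested. Their summed level was 216 to 435 CPM after saline and 560 to 668 CPM after cerulein. Its part in the Nlrp3 value was not tested.

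The enzymes included the members with the fewest saline reads. Ppef1 had 1, 0 and 0 reads after saline and 544, 551 and 802 reads after cerulein. The mean level was 0.0451 ± 0.0782 CPM after saline and 76.7 ± 21.3 CPM after cerulein. A count of 0 allows up to 0.676 CPM in saline replicate 2 and 0.771 CPM in saline replicate 3 (3 reads each). The gene was thus near silent in all saline libraries and well detected in all cerulein libraries. With 1 saline read, the pooled counts differed 1196-fold with an exact 95% interval of 214 to 47276, so the size of the fold is poorly known. Without saline replicate 1, which holds that read, it was at least 211-fold higher against a floor of 3 reads over the saline group.

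Ppef1 also varied most among the cerulein libraries, with a coefficient of variation of 27.7%, against a median of 12.3% for the 9 genes and 14.3% for all genes tested. Cerulein replicates 1 and 2 lay together at 64.4 and 64.5 CPM and replicate 3 above them at 101 CPM. The gene spans chromosome X, 160623094 to 160735765 on the minus strand, with 18 exon blocks. Its introns hold 2 short processed pseudogenes of Mmp3, the stromelysin gene, of 283 and 130 bases. The ratio of Ppef1 to this parent gene was not constant. Mmp3 rose by 1.49 ± 0.32 in log2 units (edgeR, adjusted p = 0.00132), and Ppef1 held 0.04, 0 and 0 reads per Mmp3 read after saline against 7.66, 8.10 and 13.6 after cerulein.

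Ppef2, the closest relative of Ppef1 and a phosphatase of photoreceptors, had 0, 1 and 2 reads after saline and 7, 0 and 3 after cerulein and was too low to test. Among the 11 catalytic subunits of the same phosphatase superfamily that were tested, 3 (27.3%) rose and 2 (18.2%) fell. The shares of all genes tested were 28.7% and 27.1%. Ppp2ca, the main catalytic subunit of protein phosphatase 2A, rose by 1.81 ± 0.19 in log2 units (edgeR, adjusted p = 4.13e-06), from 79.2 to 277 CPM. Its close copy Ppp2cb rose by 0.83 ± 0.18 (edgeR, adjusted p = 0.00126). Ppp4c, the catalytic subunit of protein phosphatase 4, rose by 0.84 ± 0.17 (edgeR, adjusted p = 8.39e-04). These differences are small beside the fitted value of 9.87 ± 0.45 for Ppef1, a gene chosen for its steep rise.

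Markers of the cells in which Ppef1 is known were also counted. Of 12 sensory and peripheral neuron genes, 3 were at 0 in all libraries and 3 were tested, and all 3 rose. They were the tubulin gene Tubb3 (3.09 on the log2 scale), the neuropeptide gene Calca (3.51) and the ubiquitin hydrolase gene Uchl1 (2.55). All 3 lay under 1.56 CPM in every saline library and passed the filter through the cerulein libraries, so nothing is read from their number. The rest of the list was too low to test. The summed level of the list was 3.15 to 6.68 CPM after saline and 17.0 to 20.5 CPM after cerulein, which is below the cerulein level of Ppef1 alone. Of 5 Schwann cell and neural crest markers tested, 2 (40%) rose and none fell, against 28.7% and 27.1% of all genes tested. Their part in the Ppef1 counts was not tested.

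Prss56 had 0, 1 and 0 reads after saline and 112, 102 and 70 reads after cerulein. On average its level was 0.0751 ± 0.130 CPM after saline and 11.3 ± 2.27 CPM after cerulein, the lowest cerulein level of the 9 genes. A count of 0 allows up to 0.406 CPM in saline replicate 1 and 0.771 CPM in saline replicate 3. The pooled counts differed 179-fold (exact 95% interval 31.9 to 7099), and without saline replicate 2, which holds the only saline read, the difference was at least 42.8-fold. The gene lies at chromosome 1, 87183313 to 87188405 on the plus strand, with 13 exon blocks.

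The tested serine proteases named PRSS, other than those of digestion, did not pass the test. Of 25 in the table, 8 were at 0 in all libraries and 5 were tested, and edgeR called none of the 5. At an unadjusted p under 0.05 the count was 0 too, as it was with DESeq2 and with limma-voom. Prss8, the membrane-anchored protease prostasin of epithelia, was at -0.24 ± 0.20 (edgeR, adjusted p = 0.314). It stood at 0.37 with library size alone and passed the threshold without saline replicate 1, at -0.48.

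Nrip3 had 1, 2 and 1 reads after saline and 200, 228 and 209 reads after cerulein. Its mean level was 0.281 ± 0.159 CPM after saline and 25.6 ± 1.66 CPM after cerulein, and the pooled counts differed 100.4-fold (exact 95% interval 39.0 to 369.7). The fold rests on 4 saline reads, and it was 71.0 without saline replicate 1 and 144 without saline replicate 2. The cerulein libraries were tight, with a coefficient of variation of 6.49%. Nrip3 lies at chromosome 7, 109758055 to 109782025 on the minus strand, with 8 exon blocks, and an intron holds the small nuclear RNA gene Gm22822 of 107 bases.

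Genes were listed beside Nrip3 by the NRIP name or by the retropepsin-like fold. Nrip1, a corepressor of nuclear receptors listed for its name only, rose by 0.94 ± 0.22 in log2 units (edgeR, adjusted p = 0.00301), from 19.8 to 38.6 CPM. Ddi2, a retropepsin-like protease that processes the transcription factor Nfe2l1, fell by 1.18 ± 0.37 (edgeR, adjusted p = 0.0231). The Ddi2 call did not hold with library size alone (-0.67) or without cerulein replicate 1 (-1.20) or cerulein replicate 2 (-0.94). Nrip2 was too low to test, with 10, 4 and 3 reads after saline and 10, 6 and 7 after cerulein.

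The 2 transporter genes started from a few CPM. Slc35e4 had 33, 17 and 21 reads after saline and 1284, 1482 and 1064 reads after cerulein. The mean over libraries was 4.57 ± 0.789 CPM after saline and 153 ± 19.6 CPM after cerulein, and the pooled counts differed 34.0-fold (exact 95% interval 26.9 to 43.7). The gene is compact, with 2 exon blocks at chromosome 11, 3907021 to 3914664 on the minus strand. Mfsd6l had 15, 10 and 11 reads after saline and 553, 695 and 579 reads after cerulein. Its mean level was 2.37 ± 0.411 CPM after saline and 73.3 ± 7.94 CPM after cerulein, a 32.004-fold difference of the pooled counts (exact 95% interval 23.0 to 45.8). Mfsd6l has a single exon block, at chromosome 11, 68556186 to 68558245 on the plus strand. In both genes cerulein replicate 2 was the highest library, and no saline library came near a cerulein one.

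Of 21 members of the wider SLC35 family tested, 6 (28.6%) rose and 7 (33.3%) fell, near the shares of all genes tested. Slc35e3 rose by 1.14 ± 0.21 in log2 units (edgeR, adjusted p = 4.52e-04), from 17.9 to 39.4 CPM, and Slc35e1 fell by 0.66 ± 0.15 (edgeR, adjusted p = 0.00189), a call that did not hold with library size alone (-0.07). Slc35e2 was at 0.08 ± 0.40 (edgeR, adjusted p = 0.880), a value that changed sign with upper-quartile factors (-0.12). Genes of the same subgroup as Slc35e4 therefore stood on both sides of 0. None was near the fitted 5.07 ± 0.20 of Slc35e4, which was chosen for its steep rise. Among members with a known cargo, Slc35d1, which carries UDP-glucuronic acid and UDP-N-acetylgalactosamine, fell by 1.64 ± 0.25 (edgeR, adjusted p = 1.13e-04). Slc35a3, a UDP-N-acetylglucosamine transporter, fell by 0.87 ± 0.16 (edgeR, adjusted p = 4.38e-04), which did not hold with library size alone (-0.31). Slc35f6 rose by 0.89 ± 0.16 (edgeR, adjusted p = 4.33e-04).

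Of 15 MFSD transporters tested, 5 (33.3%) rose and 2 (13.3%) fell, against 28.7% and 27.1% of all genes tested. Mfsd2a, which carries lysophosphatidylcholine with omega-3 fatty acids, rose by 5.47 ± 0.77 in log2 units (edgeR, adjusted p = 6.43e-05). It had 1, 1 and 0 reads after saline and 24, 52 and 82 after cerulein, a steep but low and scattered difference. Its saline libraries lay under 1.56 CPM, so it passed the filter through the cerulein libraries. Mfsd7c, a choline and haem transporter, rose by 1.90 ± 0.34 (edgeR, adjusted p = 3.79e-04), and Mfsd10 rose by 0.80 ± 0.18 (edgeR, adjusted p = 0.00211). Mfsd6, the namesake of Mfsd6l, was at 0.19 ± 0.14 (edgeR, adjusted p = 0.287) and at -0.01 with upper-quartile factors, and it passed the threshold with library size alone, at 0.75.

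Fam84a had 10, 7 and 2 reads after saline and 676, 780 and 564 reads after cerulein. Its average was 1.15 ± 0.560 CPM after saline and 80.8 ± 10.0 CPM after cerulein, and the pooled counts differed 67.0-fold (exact 95% interval 42.8 to 112). Saline replicate 3, at 0.514 CPM, was the lowest, and the other saline libraries stood at 1.35 and 1.58 CPM. Fam84a lies at chromosome 12, 14146830 to 14152054 on the minus strand, with 3 exon blocks. Its sister gene Fam84b rose by 1.42 ± 0.20 in log2 units (edgeR, adjusted p = 4.65e-05), from 69.4 to 186 CPM. Pla2g16, a phospholipase with a related domain, fell by 1.77 ± 0.27 (edgeR, adjusted p = 1.15e-04), from 11.6 to 3.33 CPM.

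Ccdc71l had the smallest fold of the 9 and the highest saline level after Nlrp4e. It had 109, 60 and 53 reads after saline and 1782, 1612 and 1705 reads after cerulein. Its mean level was 14.0 ± 0.690 CPM after saline and 205 ± 14.3 CPM after cerulein, a 14.5-fold difference of the pooled counts (exact 95% interval 12.7 to 16.6). Both groups were tight, and cerulein replicate 2 was its lowest cerulein library, unlike in the other 8 genes. Ccdc71l has a single exon block, at chromosome 12, 32378704 to 32382943 on the plus strand. Its namesake Ccdc71 rose by 1.31 ± 0.17 in log2 units (edgeR, adjusted p = 2.55e-05), from 14.3 to 35.7 CPM.

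Over all family lists together, 67 of 117 relatives in the table were tested, 20 (29.9%) rose and 13 (19.4%) fell. Some, such as Nrip1, were listed by name only. Among all genes tested the shares were 28.7% and 27.1%, so the share that rose was near the background and the share that fell was lower. The median log2 fold change of the relatives was 0.19, against a median near 0 (-0.000914) for all genes tested and 5.40 for the 9 chosen genes. A rise of at least 2-fold was called in 11 of the 67 tested relatives and in 18.3% of all genes tested. Of the 11, 1 gene, Mfsd2a, had a larger fitted value than its chosen family member. The split of the relatives moved to 17 higher against 19 lower under upper-quartile scaling, and to 30 against 2 when only the library size was used.

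**Figure D3:**
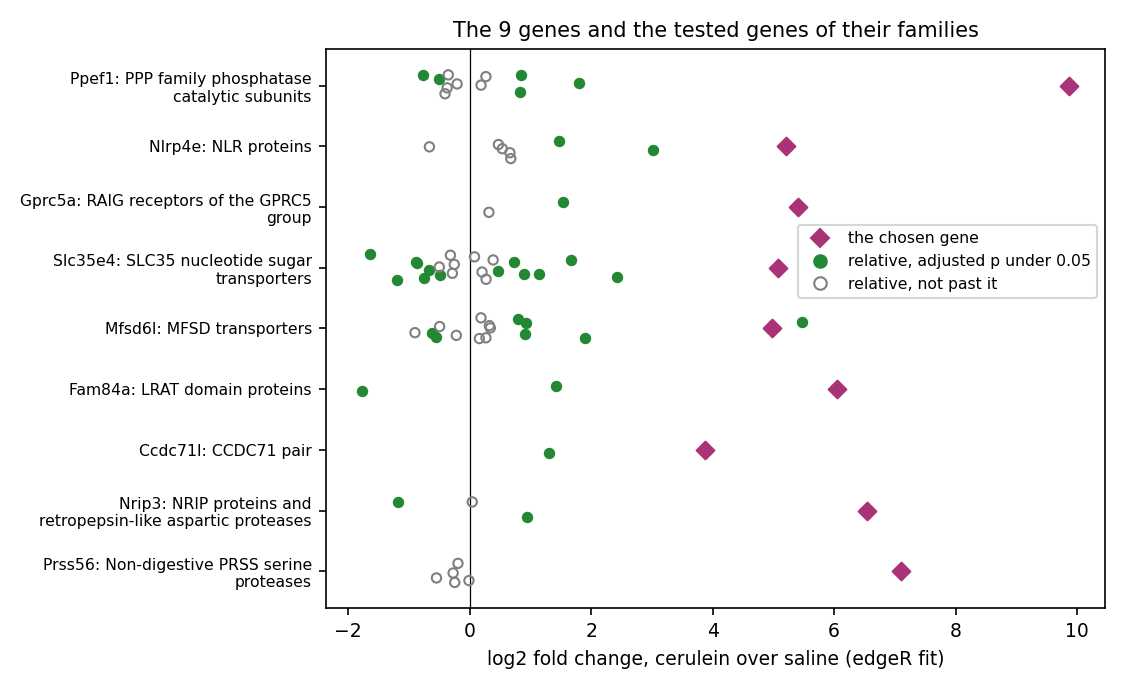
Fitted log2 fold change, cerulein over saline, of the 9 genes (diamonds) and of the tested genes listed with them by family or name (circles, filled where the adjusted p was under 0.05), with 1 row per list. Most relatives lie between -2 and 2 while the diamonds lie between 3.87 and 9.87, and Mfsd2a at 5.47 lies beyond Mfsd6l at 4.98. The 9 genes were chosen for steep rises, so their place beyond most relatives follows from the choice.

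Levels between genes were compared per kb of exon. In the cerulein libraries Nlrp4e stood highest at 765 CPM per kb, the 99.7th percentile of 11918 tested genes with a known exon length, with the limit on its row given above. Slc35e4 followed at 50.03, Ccdc71l at 48.3 and Gprc5a at 45.2 CPM per kb, and the ranges of these 3 over the libraries overlapped. Mfsd6l was at 35.6 CPM per kb and Ppef1 at 26.5, with ranges of 31.8 to 39.5 and 22.3 to 35.0 that also overlapped. Fam84a was at 18.8 CPM per kb, apart from its neighbours in this order. Nrip3 at 6.38 and Prss56 at 5.20 CPM per kb overlapped, at the 70.4th and 65.3th percentiles. The steepest folds thus did not mark the most abundant transcripts.

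In the saline libraries Nlrp4e was again highest, at 20.6 CPM per kb, and Ccdc71l was next at 3.29, near the middle of all tested genes (54.0th percentile). Slc35e4 at 1.49, Mfsd6l at 1.15 and Gprc5a at 1.04 CPM per kb formed a run in which neighbours overlapped. Fam84a at 0.267 stood below them, and Nrip3 (0.0700), Prss56 (0.0344) and Ppef1 (0.0156) overlapped at the bottom.

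The genes whose log2 CPM moved most like each member were found by the root mean square difference over the 6 libraries, after each gene's mean was removed. This is a description over 6 points in 2 groups, so genes with a like difference between the groups come out first. The log2 CPM carried a prior count of 2, which shrinks differences that start from few reads. The difference was 5.01 for Prss56 and 5.52 for Nrip3 there, and 6.58 and 6.27 with a prior count of 0.5. For Ppef1 it was 7.81 and 9.49. Nearest genes were not sought under other prior counts. Krt8, whose reads may be shared with the Nlrp4e row, was nearest to Nlrp4e (0.066), next after the nearest for Gprc5a (0.143) and Nrip3 (0.277), and among the 3 nearest of Prss56 (0.335). Krt19, a keratin of ducts, was nearest to Mfsd6l (0.135) and the next after Mfsd6l for Slc35e4 (0.192). Krt17, a keratin of injured epithelia with 1, 0 and 0 saline reads, was among the 3 nearest of Ppef1 (0.925) and Fam84a (0.365). Genes other than keratins stood in the same lists. Srxn1 (0.343) was nearer to Fam84a than Krt17 was, Rcan1 (0.962) came next after Krt17 for Ppef1, and Itpkc (0.214) was among the 3 nearest of Nlrp4e.

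At this prior count Actg1, a cytoskeletal actin gene, was nearest to Nrip3 (0.268) and Prss56 (0.250). Actg1 was highest in replicate 2 of the saline libraries (131, 311 and 146 CPM). Nrip3 had 1, 2 and 1 saline reads and Prss56 0, 1 and 0, so the likeness within saline rests on single reads. The fitted log2 fold change of Actg1 was 5.13, against 6.54 for Nrip3 and 7.11 for Prss56. Aloxe3, a lipoxygenase gene of the epidermis, was nearest to Fam84a (0.324) and next for Prss56 (0.276). Several of the 9 were also near each other. Slc35e4 and Mfsd6l lay 0.169 apart and Gprc5a and Nlrp4e 0.105 apart. Ccdc71l went instead with Fam83h (0.063), a gene tied to keratin organisation, and with Fam57a and Rtn4r. Ppef1 was nearest to Kel (0.325), the Kell blood group metalloprotease gene, which went from 1.53 ± 0.561 to 296 ± 56.6 CPM. Mfsd6l also lay near Hbegf (0.145), a ligand of the epidermal growth factor receptor, and Gprc5a near Tnfrsf12a (0.157), the receptor of the cytokine TWEAK.

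Markers of the cell types a pancreas holds moved as follows beside these genes. For comparison, 28.7% of all genes tested rose and 27.1% fell. Of 9 ductal markers tested, 7 (77.8%) rose and 2 (22.2%) fell. The summed level of the ductal list was 455 to 558 CPM after saline and 1222 to 1479 CPM after cerulein. Of 12 acinar markers, 10 fell and none rose. No neutrophil marker of 5 and no lymphocyte marker of 6 was called by edgeR, and none passed at an unadjusted p under 0.05 or with DESeq2 or limma-voom. The summed neutrophil level was highest in saline replicate 1, at 208 CPM, against 16.9 and 40.9 CPM in the other saline libraries and 44.1 to 110 CPM after cerulein. Of 10 stellate cell and fibroblast markers 2 rose and 1 fell, of 8 endothelial markers 2 rose and 2 fell, of 8 islet markers 3 fell, and of 5 adipocyte markers 1 rose and 1 fell. The part of a changed cell makeup in the levels of the 9 genes was not tested. Without saline replicate 1, the pooled-count folds of the 9 genes other than Ppef1 lay between 15.1 for Ccdc71l and 94.9 for Prss56.

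Within 100 kb of the 9 genes lay 41 annotated genes of the table, of which 17 were tested, 3 rose and 5 fell. Among all genes tested 28.7% rose and 27.1% fell. The largest value was that of Pik3r5, a regulatory subunit of phosphoinositide 3-kinase gamma, which rose by 1.37 ± 0.29 in log2 units (edgeR, adjusted p = 0.00182) at 58.3 kb from Mfsd6l. Pik3r6, its sister gene at 3.488 kb from Mfsd6l, was at 0.73 (edgeR, adjusted p = 0.218) and reached 1.61 and passed the threshold without saline replicate 1. Near Slc35e4, Tcn2, a vitamin B12 carrier at 2.413 kb, fell by 0.94 ± 0.16 (edgeR, adjusted p = 2.28e-04), though not past the threshold with library size alone (-0.37). Dusp18, a phosphatase gene 5.723 kb from Slc35e4 on the other side, was at 0.15 (edgeR, adjusted p = 0.801) and at -0.04 with upper-quartile factors.

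Near Nrip3, Tmem9b at 5.793 kb fell by 0.50 ± 0.19 (edgeR, adjusted p = 0.0361) but stood at 0.07 with library size alone. It also missed the threshold with no filter (-0.43), with DESeq2 (-0.51), and without saline replicate 2 (-0.41), saline replicate 3 (-0.51), cerulein replicate 1 (-0.45) or cerulein replicate 3 (-0.39). Eif4e2, a cap-binding protein gene 25.506 kb from Prss56, rose by 0.53 ± 0.17 (edgeR, adjusted p = 0.0169), though not with upper-quartile factors (0.33) or without saline replicate 3 (0.45) or cerulein replicate 2 (0.43). Ddx47, the nearest tested gene to Gprc5a, was at 0.08 (edgeR, adjusted p = 0.708) and at -0.12 with upper-quartile factors, and it passed the threshold with library size alone, at 0.65. For Ppef1, Phka2 was at -0.90 (edgeR, adjusted p = 0.0663) but passed the threshold with upper-quartile factors (-1.09), with no filter (-0.83) and without saline replicate 2 (-1.21). It stood at -0.26 without saline replicate 1. No neighbour could be tested for Nlrp4e, Fam84a or Ccdc71l. Widening the distance to 250 kb gave 37 tested genes, of which 9 rose and 13 fell, beside 28.7% and 27.1% of all genes tested. Of the 9, 3 rose by at least 2-fold, and the largest value was that of Sec14l2 at 3.44, next to the 3.87 of Ccdc71l, the smallest of the 9 chosen genes.

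**Figure D4:**
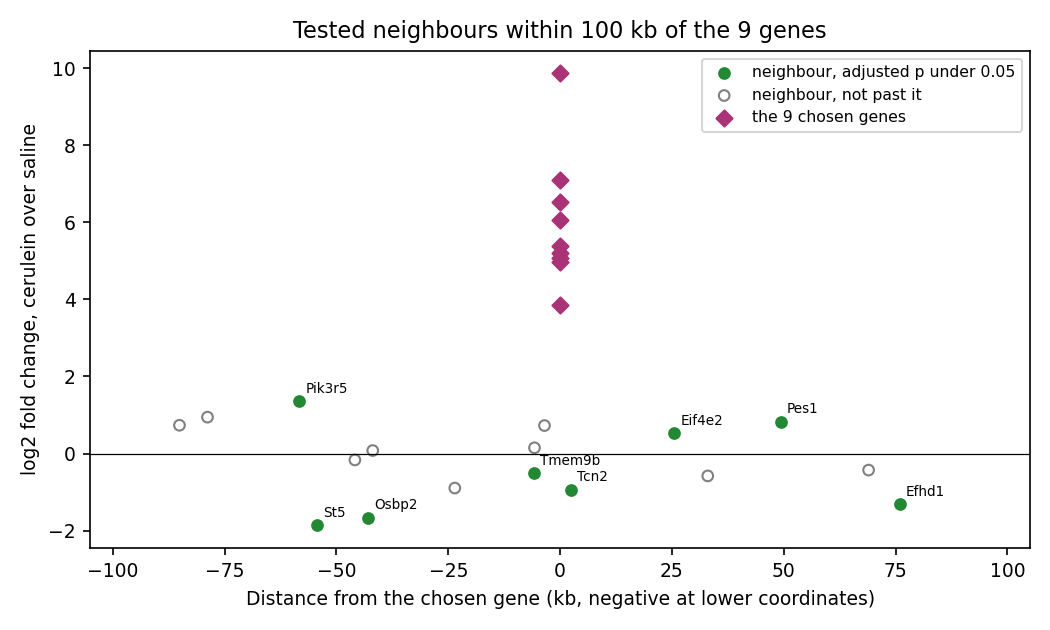
Fitted log2 fold change of the tested genes within 100 kb of the 9 genes (circles, filled where the adjusted p was under 0.05) against their distance in kb, with the 9 genes themselves (diamonds) at 0 and names given for the filled circles. The 17 neighbours lie at or below 1.37, the value of Pik3r5. All 9 diamonds lie above them, which follows from the choice of the 9 genes for steep rises.

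Gene structure varied among the 9. Their median span was 7.644 kb and their median number of exon blocks 4, against 25.216 kb and 10 for 11584 tested protein-coding genes. Mfsd6l and Ccdc71l have 1 exon block each, which holds for 1.85% of those genes, and Slc35e4 brings the genes with at most 2 exon blocks to 3 of 9, against 5.17%. At the other end, Ppef1 has 18 exon blocks over 112.672 kb, Nlrp4e 10 over 61.086 kb and Prss56 13 over 5.093 kb.

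Promoters, from 250 bases before to 50 bases after the start, were in the RefSeq table (GRCm38.p6) for 7 of the 9 genes, and 14 short motifs were searched in them on both strands. The Ppef1 window, chrX:160719923-160720222 on the minus strand, lies inside the annotated gene. That gene begins at 160735765 in GENCODE and at 160751290 in RefSeq, so the window is that of an inner start. Fam84a and Ccdc71l are shown because they were the 2 that held both the CCAAT box (CCAAT) and the GC box (GGGCGG), the common elements of housekeeping and inducible promoters. Capitals mark these boxes on either strand. The Fam84a sequence lies at chr12:14151989-14152288 on the minus strand and the Ccdc71l sequence at chr12:32378539-32378838 on the plus strand.
Fam84a: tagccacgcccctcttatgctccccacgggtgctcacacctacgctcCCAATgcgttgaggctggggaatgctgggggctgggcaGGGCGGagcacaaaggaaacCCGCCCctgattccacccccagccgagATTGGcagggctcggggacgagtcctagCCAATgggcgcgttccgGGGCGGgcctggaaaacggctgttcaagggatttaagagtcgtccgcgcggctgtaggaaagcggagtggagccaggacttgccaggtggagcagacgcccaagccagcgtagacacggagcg
Ccdc71l: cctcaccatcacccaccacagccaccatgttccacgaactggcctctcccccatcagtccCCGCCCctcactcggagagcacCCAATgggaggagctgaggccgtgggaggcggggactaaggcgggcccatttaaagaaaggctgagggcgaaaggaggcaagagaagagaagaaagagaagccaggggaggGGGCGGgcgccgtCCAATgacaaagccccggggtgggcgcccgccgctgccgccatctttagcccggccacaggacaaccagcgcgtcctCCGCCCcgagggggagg

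Each box was found in 3 of the 7 promoters, the CCAAT box also in Nlrp4e and the GC box also in Mfsd6l, against 37.4% and 35.7% of all 32851 promoters. Those shares are close. The CpG dinucleotide ratio, observed over expected, was 0.731 for Fam84a, 0.606 for Slc35e4, 0.6 for Ccdc71l and 0.575 for Mfsd6l. It was 0.288 for Prss56, 0.136 for the inner window of Ppef1 and 0 for Nlrp4e. The 7 promoters were thus not of 1 type.

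Motifs of stress-responsive factors were scattered over the promoters. The core of the antioxidant response element (TGACNNNGC) was in Nlrp4e, Slc35e4 and Ccdc71l and in 12.4% of all promoters. The TEAD site (GGAATG) was in Nlrp4e, Fam84a and Prss56 and in 14.7% of all. The STAT site (TTCNNNGAA) was in Ccdc71l and Prss56 (8.30% of all), and the NFAT core (GGAAAA) in Nlrp4e and Fam84a (23.4%). The heat shock pair (GAANNTTC) was in Nlrp4e (7.86%). The TATA box letters (TATAAA) were in Ppef1 (13.6%) and the ETS site (CCGGAAG) in Mfsd6l (8.86%), both on the opposite strand. The Ppef1 match lay at -244 to -239 in its inner window. The AP-1 site (TGANTCA, 7.81% of all), the full cAMP response element (TGACGTCA, 1.79%), the E-box (CACGTG, 7.15%) and the CArG box (1.63%) were in none of the 7. The cAMP response half-site (TGACG, 20.8%), which is part of the full element, was in Mfsd6l. Searched on the gene's own strand only, the TEAD site and the NFAT core were each in 1 of the 7 promoters and the TATA box and ETS site in 0. A match is a run of letters and not a shown binding site, and no match says only that the letters are not in this window.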

How the data were processed

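The authors deposited 1 table of raw counts by gene; per the submitters' processing notes, Trimmomatic, STAR, HTSeq and the mm10 build were used. The strand setting, counted features and annotation: not given in the sources used here. Per the labels' protocols, TRIzol RNA went into TruSeq Stranded mRNA libraries. The deposited counts were tested with edgeR 4.0.16 (R 4.3.3; filterByExpr, minimum count 10, minimum total 15; TMM; quasi-likelihood F test with robust shrinkage, two-sided), with Benjamini-Hochberg adjustment over 12441 genes and a threshold of 0.05. limma 3.58.1 (voom) and DESeq2 1.42.0 were alternatives, beside other scalings, filters, left-out libraries, neighbour distances and prior counts (2 in the log2 CPM of the likeness measure). The fit was tested on simulated data in which few genes changed, up and down alike. That test does not bear on the choice of scaling here, where many genes changed. CPM are counts over TMM-scaled library sizes, as mean ± SD over 3 libraries, and pooled-count folds carry exact 95% binomial intervals. TMM factors were 1.03, 0.719 and 0.731 (saline) and 1.30, 1.13 and 1.26 (cerulein). These intervals cover counting error only, because the reads carry no molecular identifiers. Positions and exons came from GENCODE vM21 (mm10), and pseudogenes were aligned to transcripts with blastn. Genes named are the 9 members, up to 3 called relatives of each family with the smallest p, the closest relatives by name, the nearest tested neighbours (some genes that the rule takes are left out of the text) and the 3 most alike genes (predicted and clone-named genes left out); Pik3r5, the oocyte, neuron and other Nlrp4 genes were named after their values were seen. The members and lists were chosen with earlier results of these data known.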

Additional observations from a re-analysis of the deposited data

How the results depend on the processing

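The fitted log2 fold changes of the 9 genes kept their direction in all 135 values computed under alternative settings. This follows from the choice of the genes for steep rises. Of these values, 22 differed from the main one by more than 1 SD. Over all settings Nlrp4e lay between 5.01 and 5.77, Gprc5a between 5.20 and 5.94, and Slc35e4 between 4.88 and 5.62. Mfsd6l lay between 4.78 and 5.53, Fam84a between 5.78 and 6.59, and Ccdc71l between 3.67 and 4.43. Nrip3 lay between 6.04 and 7.07, Ppef1 between 9.03 with limma-voom and 11.98 without saline replicate 1, and Prss56 between 6.30 with limma-voom and 9.37 without saline replicate 2, so the depth of the saline libraries limits these last values. Upper-quartile factors moved the median of all genes by -0.20 and library size alone by 0.56.

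With library size alone, 1449 of all genes, 2 relatives, 2 neighbours and 13 marker genes were lower and 5 neighbours were higher, as that median moved. With TMM factors set without the acinar enzyme genes, 10 marker genes were lower, because those genes were removed from the test. DESeq2 called 3 neighbours lower. When single libraries were left out, 3 to 5 neighbours (3 without saline replicate 3) and 8 to 18 relatives (8 without cerulein replicate 1) were lower; the cause was not tested. Within 50 kb 3 neighbours were lower, and within 250 kb 9 were higher and 13 lower, as the number of genes tested changed. Signs changed with upper-quartile factors for Slc35e2 (-0.12), Mfsd6 (-0.012), Ddx47 (-0.12) and Dusp18 (-0.043), as the median of all genes moved by -0.20. With library size alone they changed for Prss8 (0.37) and Tmem9b (0.074), as that median moved by 0.56. Over the left-out libraries Slc35e2 lay from -0.074 to 0.24 (-0.064 without saline replicate 1). Dusp18 lay there from -0.054 to 0.45 (-0.052 without cerulein replicate 1). The cause of the changes with left-out libraries was not tested.

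The deviations of libraries with the same replicate number correlated at 0.19, 0.22 and -0.15. For unlike numbers the correlations lay between -0.29 and 0.088. Whether the numbers mark pairs cannot be told from these values. With the replicate block 3673 genes were higher and 3401 lower.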
